A study of Danio rerio with 4 samples.

Results

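Transcripts of 6 genes of simple epithelium and periderm were followed in endothelial cells sorted from the posterior cardinal vein, which drains the trunk of the zebrafish embryo. The genes are the keratin genes krt8 (ENSDARG00000058358), krt18a.1 (ENSDARG00000018404), krt4 (ENSDARG00000017624), cyt1l (ENSDARG00000036832) and krt17 (ENSDARG00000094041), and the claudin gene cldni (ENSDARG00000054616). They were taken by identifier from 32434 gene rows and were chosen by their counts per library: krt8 and krt18a.1 were counted in all 4 libraries and the other 4 genes in 1 library. Their values are therefore given as a description with no test. Ventral and dorsal cells were compared at 24 hours post fertilization, with 2 libraries from each side. All embryos were of the strain Tg(fli1:gal4;uasKaede), in which the photoconvertible protein Kaede is expressed where the endothelial and blood-cell gene fli1 is active. Either the ventral or the dorsal side of the vein was turned red by light, and the red cells of 6 embryos per group were sorted. A sort on fli1-driven Kaede takes every red cell, so cells other than endothelium that carry the red protein would be in the sample too. The labels do not say that libraries of a side came from separate pools of embryos, so the spread between them may be technical.

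Keratins are the intermediate filament proteins of epithelial cells. Each filament is built from pairs of a type I and a type II keratin, so that the genes of both types are normally active together. Keratin 8 (type II) and keratin 18 (type I) form the filaments of simple, single-layered epithelia, and in mammals they also occur in some endothelial cells. The zebrafish embryo is covered by a flat outer layer, the periderm, which descends from the enveloping layer of the blastula. The type II keratin gene krt4 and several type I keratin genes are known from this surface layer. Claudins such as cldni are membrane proteins of tight junctions, which seal epithelial sheets.

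The 2 ventral libraries held 108405 and 79527 gene counts, and the 2 dorsal libraries 115876 and 51376. Each spike-in count was matched by 11.2 and 9.68 gene counts on the ventral side, against 12.5 and 4.68 in the dorsal libraries. Dorsal library 2 was thus the lowest in gene counts by both measures. Its spike-in counts were the highest, with 9688 and 8218 in the ventral libraries, against 9268 and 10968 in the dorsal libraries. The libraries were made with CEL-Seq, which tags transcripts near the 3′ end, so counts were not divided by gene length. Levels are given as CPM, counts per 1000000 gene counts of the library. Intervals are exact 95% Poisson or binomial intervals and cover counting error only. The endothelial label was checked with 20 gene rows of a marker list, 19 of which had a count. Their sum was 1660 and 1559 CPM in the ventral libraries, against 423 and 642 CPM in the dorsal libraries. The members with the most counts were the scavenger receptor gene stab2, with 33 and 30 counts on the ventral side against 1 and 6 on the dorsal side, and plvapb of endothelial pore diaphragms, with 22 and 20 against 10 and 6. Standard markers with few counts were the receptor gene tek, with 10 and 10 against 2 and 3, and the junction gene cdh5, with 2 and 1 against 4 and 0. The transcription factor gene ERG gave 0 in all 4 libraries.

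The simple epithelial pair krt8 and krt18a.1 was counted on both sides of the vein, with a higher CPM in both ventral libraries than in either dorsal one. The type II gene krt8 gave 86 and 38 counts in ventral libraries 1 and 2, against 23 and 9 counts in dorsal libraries 1 and 2. These are 793 CPM (635 to 980) and 478 CPM (338 to 656) on the ventral side, and 198 CPM (126 to 298) and 175 CPM (80.1 to 333) on the dorsal side. Ventral library 1 was the highest, ventral library 2 came next, and the dorsal libraries lay within each other's counting intervals. The groups did not overlap, and 19.4% of the 1399 genes tested likewise had both ventral libraries above both dorsal ones in CPM. By count, krt8 ranked at place 191 of the 9009 genes with a count in ventral library 1 and at place 275 of 7810 in ventral library 2. It ranked at place 691 of 8376 in dorsal library 1 and at place 691 of 6272 in dorsal library 2. The mean level of krt8 was 636 ± 223 CPM in ventral libraries, against 187 ± 16.5 CPM in dorsal libraries (SD, n = 2 each). The fit across all tested genes gave it a log2 fold of 1.76 ± 0.33 (SE), or 3.4-fold with an interval of 2.16 to 5.35 (2 SE).

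Its type I partner krt18a.1 gave 69 and 31 counts in the ventral libraries, against 21 and 4 counts in the dorsal libraries. These are 637 CPM (495 to 806) and 390 CPM (265 to 553) on the ventral side, and 181 CPM (112 to 277) and 77.9 CPM (21.2 to 199) on the dorsal side. The order of the libraries was the same as for krt8. The intervals of ventral library 2 and dorsal library 1 overlapped by little, and those of the dorsal libraries overlapped widely, since dorsal library 2 rests on 4 counts. Mean levels were 513 ± 174 CPM in ventral libraries, against 130 ± 73.1 CPM in dorsal libraries (SD, n = 2 each). The log2 fold of krt18a.1 was 1.87 ± 0.39 (SE), or 3.66-fold with an interval of 2.14 to 6.28 (2 SE). Without dorsal library 1, where the dorsal side rests on 4 counts, the log2 fold of krt18a.1 was 2.59 ± 0.58 (SE).

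**Figure D1:**
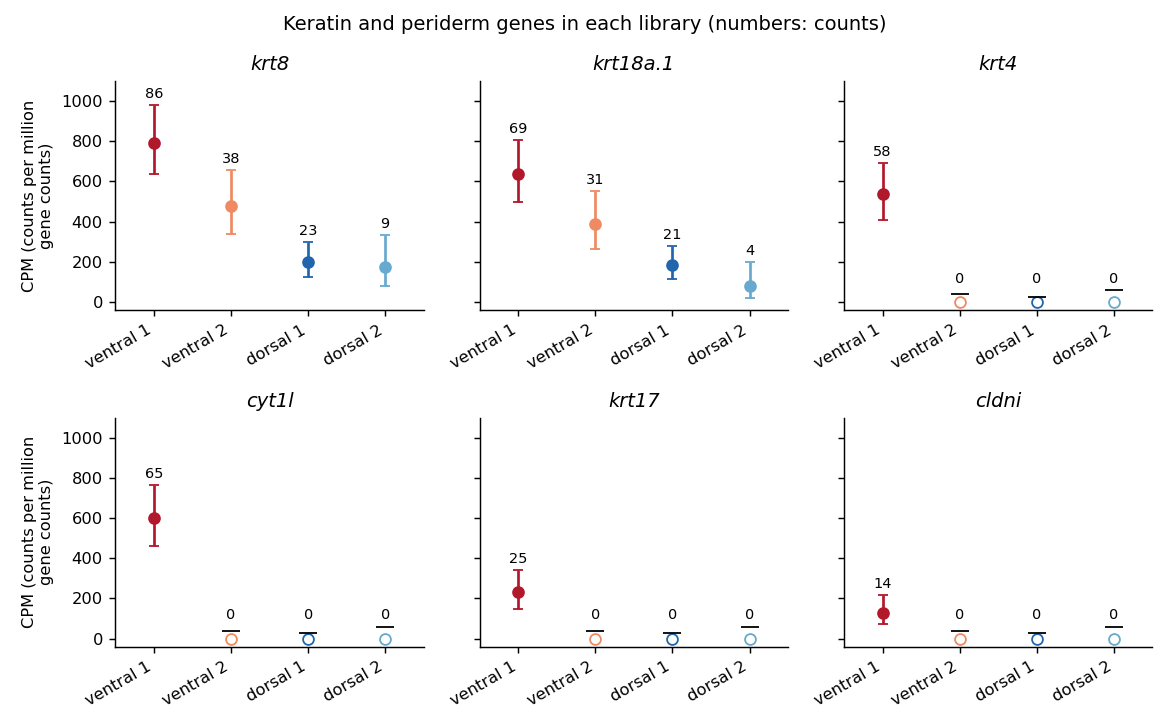
CPM of each of the 6 genes in each library. Filled points are measured levels with exact 95% Poisson intervals, open points are counts of 0 with a dash at the level of 3 counts, and the numbers are counts. The pair krt8 and krt18a.1 has points above 0 in all 4 libraries, while krt4, cyt1l, krt17 and cldni have them in ventral library 1.

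Both genes were set beside all tested genes as a description. By log2 fold, krt18a.1 stood at place 21 and krt8 at place 25 from the highest of the 1399 tested genes, whose median log2 fold was -0.03. Of all tested genes, 0.429% passed edgeR's test as higher in ventral libraries and 0.0% as lower, which is 6 genes and 0 genes at an adjusted p under 0.05. At an unadjusted p under 0.05 there were 105 higher and 65 lower genes. With DESeq2 or voom the number called was 0 both ways, with 51 and 102 higher and 7 and 76 lower at an unadjusted p under 0.05. Leaving out ventral library 1 gave 12 higher and 5 lower calls, leaving out ventral library 2 gave 46 and 2, leaving out dorsal library 1 gave 0 and 2, and leaving out dorsal library 2 gave 7 and 1. These shares are background: the pair was chosen with its counts known, and nothing is read from its place among the folds. Neither gene was among the 6 called. The remaining 4 genes did not pass the filter on low counts, so 2 of the 6 genes have a fitted fold.

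The partners kept a similar proportion to each other in the 3 libraries with more gene counts. The share of krt8 in the summed counts of the pair was 55.5% (47.3% to 63.5%) and 55.1% (42.6% to 67.1%) in ventral libraries 1 and 2. It was 52.3% (36.7% to 67.5%) and 69.2% (38.6% to 90.9%) in dorsal libraries 1 and 2. All 4 intervals overlapped, and the dorsal library 2 value rests on 13 counts of the pair, so a change in proportion was not detectable at this depth. Summed, the pair stood at 1430 and 868 CPM in the ventral libraries, against 380 and 253 CPM in the dorsal libraries. The ratio of mean levels, ventral over dorsal, was 3.63.

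Endothelial transcripts differed between the same libraries in the same direction. For each 100 counts of the endothelial marker list, the pair gave 86.1 counts (69 to 107) and 55.6 counts (40.8 to 75.3) in ventral libraries 1 and 2. It gave 89.8 counts (58.4 to 138) and 39.4 counts (19 to 76.9) in dorsal libraries 1 and 2. Measured this way, the sides overlapped: dorsal library 1 was the highest and dorsal library 2 the lowest, with the ventral libraries between them. In bulk samples, fewer cells of a type and less RNA per cell cannot be told apart, and the part of endothelial content in the keratin difference was not tested.

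**Figure D2:**
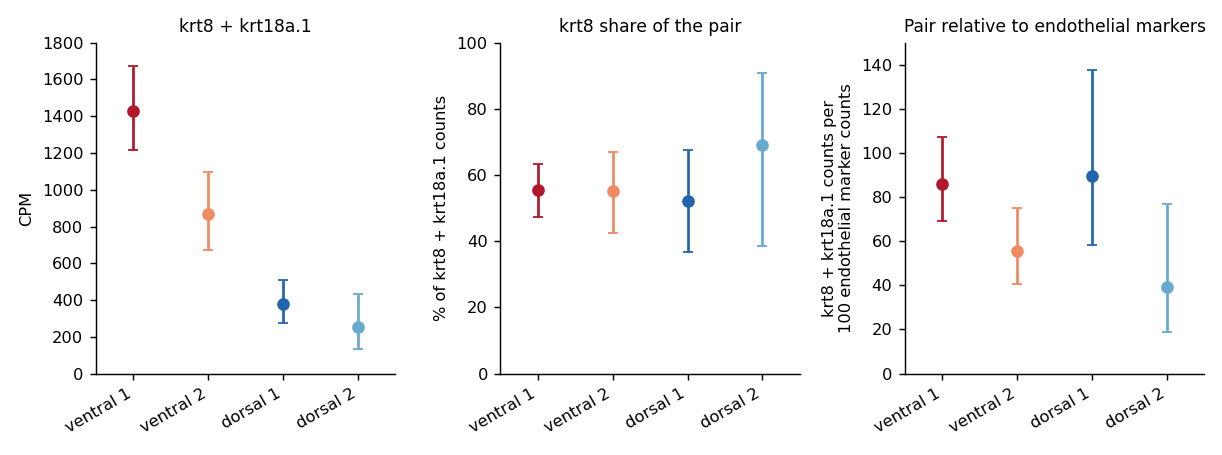
From left to right, the summed CPM of krt8 and krt18a.1, the share of krt8 in their counts, and their counts per 100 counts of endothelial marker genes, each per library with exact 95% intervals of counting error. The ventral libraries lie above the dorsal ones in CPM, while the share of krt8 and the level relative to endothelial markers overlap between the sides.

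The skin genes krt4, cyt1l, krt17 and cldni were counted in ventral library 1 and at 0 in the other 3 libraries. The type I keratin gene cyt1l had the highest count, with 65 counts or 600 CPM (463 to 764). The type II gene krt4 gave 58 counts or 535 CPM (406 to 692). In the same library krt18a.1 stood at 637 CPM (495 to 806) and krt8 at 793 CPM (635 to 980). The type I gene krt17 gave 25 counts or 231 CPM (149 to 340), and the claudin gene cldni gave 14 counts or 129 CPM (70.6 to 217). Of their 162 counts, cyt1l held 40.1%, krt4 35.8%, krt17 15.4% and cldni 8.64%. A count of 0, taken as up to 3 counts, allows up to 37.7 CPM in ventral library 2, 25.9 CPM in dorsal library 1 and 58.4 CPM in dorsal library 2. The 4 genes were chosen for this pattern, so it is not a test of ventral library 1. Dorsal library 1 had more gene counts than ventral library 1, 115876 against 108405, and 0 counts of each of the 4 genes. Because ventral library 2 also had 0, no ratio between the sides is given for these genes.

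Relative to the simple epithelial pair, the skin genes gave 105 counts per 100 counts of krt8 and krt18a.1 in ventral library 1. In ventral library 2, with 69 counts of the pair, a count of 0 allows up to 4.35 per 100, and in dorsal library 1, with 44, up to 6.82. In dorsal library 2, with 13 counts of the pair, it allows up to 23.1. These proportions follow from how the genes were chosen and are given as a description. With ventral library 1 left out, the ventral side stood at 868 CPM of the pair in its remaining library, and the ratio of ventral to dorsal levels was 2.74, against 3.63 with all libraries. The log2 fold was then 1.33 ± 0.41 for krt8 and 1.46 ± 0.49 for krt18a.1 (SE), with a single ventral library assumed to vary like the dorsal ones.

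Few genes were counted in 1 library alone at such levels. Of the 4163 genes with 10 or more counts over all libraries, 7 were counted in ventral library 1 alone, which is 0.168%, and 86.8% were counted in all 4. The corresponding number was 1 gene for ventral library 2 and 0 for each dorsal library. The 4 skin genes are among these 7 by the way they were chosen. They stood at places 1, 2, 4 and 5 by count. The others were UGGT2 with 31 counts, which encodes a glucosyltransferase of glycoprotein folding, MATN3 with 11, a matrilin of cartilage matrix, and U2 with 10, a small nuclear RNA of the spliceosome. The next 3 places were shared at 9 counts by krt91, krt92 and PTGS2, a prostaglandin synthase gene. At 3 or more counts, 77 genes were counted in ventral library 1 alone and 20 in ventral library 2 alone, against 50 in dorsal library 1 and 4 in dorsal library 2. At 1 or more counts the numbers were 1370 and 761 for the ventral libraries, against 985 and 429 for the dorsal libraries. These are out of 12123 genes with a count.

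**Figure D3:**
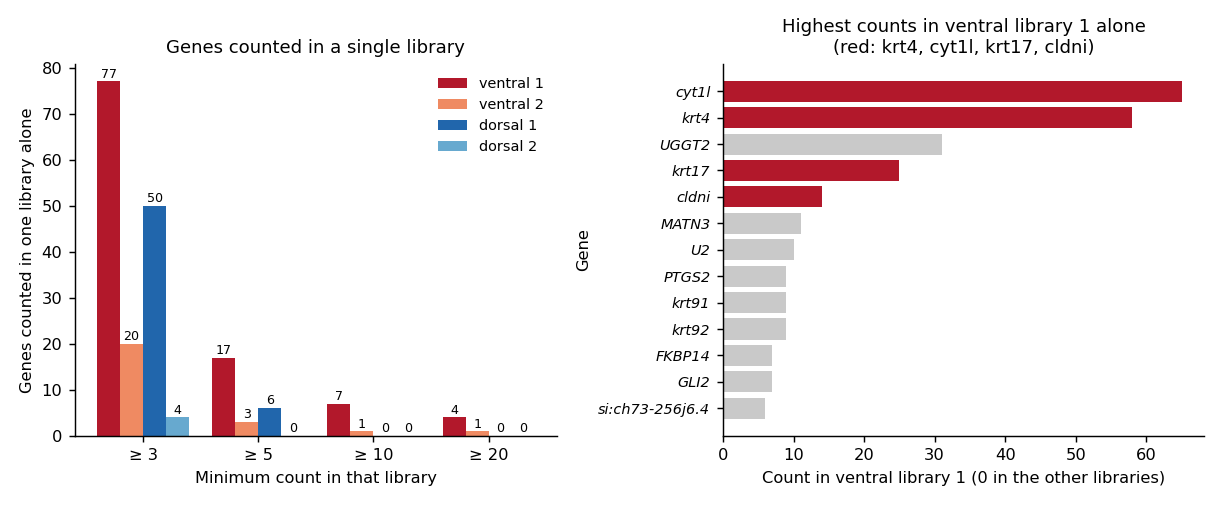
Left, the number of genes counted in a single library, by library and by minimum count. Right, the genes with the highest counts in ventral library 1 and 0 in the others, with the 4 skin genes in red; cyt1l and krt4, with 65 and 58 counts, stand above all other genes of this kind.

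The remaining keratin genes were sparse, and most of their counts were in ventral library 1. Of 16 matched genes of the list of other keratins, 7 had a count and 9 had none, and no gene was counted in every library. They gave 24 counts in ventral library 1 and 2 in ventral library 2, against 1 count in each dorsal library. The genes krt91 and krt92 each gave 9 counts in ventral library 1 alone. The genes cyt1 and krt5 each gave 2 counts there alone. Thus 4 of the 7 genes with a count were seen in that library alone, beside 1370 of 12123 over all genes. The simple-type gene krt18b gave 2 and 1 counts in the ventral libraries, against 0 in the dorsal libraries, and krt94 gave 1 count in each dorsal library. None of these genes was expressed highly enough for the test. They are below the 10 counts set for naming a list member. Of them, krt91 and krt92 are named as part of the 10 highest in ventral library 1 alone. The others were singled out after their values were seen.

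The keratin genes counted in ventral library 1 alone included a run of neighbours. On the RefSeq assembly GRCz12tu, which is not the build of the counts and is used here for gene order alone, krt8 and krt18a.1 are direct neighbours among protein-coding genes. The next gene, krt18a.2, had 0 counts in all 4 libraries, and krt5 lies on the other side of krt8. The genes krt1-19d, krt1-19e, krt92, cyt1l, cyt1, krt17 and krt91 follow each other without another protein-coding gene between them. The first 2 of them, krt1-19d and krt1-19e, had 0 counts in all 4 libraries. The other 5 had counts in no library but ventral library 1: 9, 65, 2, 25 and 9 counts in that order. Of these, cyt1l and krt17 were chosen for this pattern, so their part in the run follows from the choice of genes. Among all 12123 genes with a count, 1370 were seen in that library alone. No reads with several possible origins were listed for any library, so sharing between similar keratin genes cannot be followed, and the split of counts among these neighbours is uncertain.

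Other epidermal and periderm genes did not all follow ventral library 1. Of 29 matched genes, 19 had a count and 10 had none. Their sum was 1467 and 893 CPM in the ventral libraries, against 431 and 1109 CPM in the dorsal libraries, so the sides overlapped. The sum rests largely on pfn1, epcam and icn, which gave 16, 22 and 10 of the 57 list counts in dorsal library 2. Of the 3 members tested, 0 passed edgeR's test in either direction (1 higher and 0 lower at an unadjusted p under 0.05, and 0 called by DESeq2 or voom), with a median log2 fold of 0.08 against -0.03 over all tested genes. The actin-monomer-binding profilin gene pfn1 gave 61 and 31 counts in ventral libraries, against 14 and 16 in dorsal libraries, and a log2 fold of 1.29 ± 0.45 (SE) at an adjusted p = 0.302 in edgeR. Without ventral library 2 it passed, at a log2 fold of 1.54 and an adjusted p of 0.042. The epithelial adhesion gene epcam gave 31 and 17 counts in ventral libraries, against 13 and 22 in dorsal libraries, at 0.08 ± 0.58. The gene icn, which encodes an S100-type calcium-binding protein, gave 11 and 8 counts in ventral libraries, against 15 and 10 in dorsal libraries, at -0.59 ± 0.50. These 3 genes were present in every library, including those with 0 counts of the skin keratins. So were 86.8% of the genes with 10 or more counts. The expression filter asks for a minimum level in more than 1 library, so a gene seen in ventral library 1 alone could not be among those tested.

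Below the expression filter, 2 epidermal genes had most of their counts in ventral library 1 but, unlike the skin keratins, were counted elsewhere too. How many of all genes show such a concentration was not counted, so nothing is read from these 2. The scaffold gene ahnak gave 17 and 2 counts in ventral libraries, against 2 and 2 in dorsal libraries. The cofilin-like gene cfl1l gave 12 and 1 counts in ventral libraries, against 0 and 1 in dorsal libraries. PERP, which encodes a membrane protein of desmosomes, gave 5 and 8 counts in ventral libraries, against 1 and 1 in dorsal libraries, and so did not share that unevenness. A further 8 genes of the list, with 16 counts in total, were seen in ventral library 1 alone. Among them were TP63, the regulator of basal epidermis, with 2 counts, and the claudin genes cldn1 and cldnb with 3 each, which also stand in the claudin list. The genes grhl3 and icn2, with 7 counts each, were not concentrated there. Counts of grhl3 were 2 and 2 in ventral libraries, against 3 and 0 in dorsal libraries, and those of icn2 1 and 1 against 2 and 3. In the other libraries, 1 gene was counted in ventral library 2 alone and 1 in dorsal library 2 alone. The list had 19 genes with a count. Over all genes, 1370 of the 12123 with a count were seen in ventral library 1 alone, 761 in ventral library 2 alone and 429 in dorsal library 2 alone. The pair krt8 and krt18a.1 was also highest in ventral library 1, and the part of epidermal transcripts in that level was not tested.

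**Figure D4:**
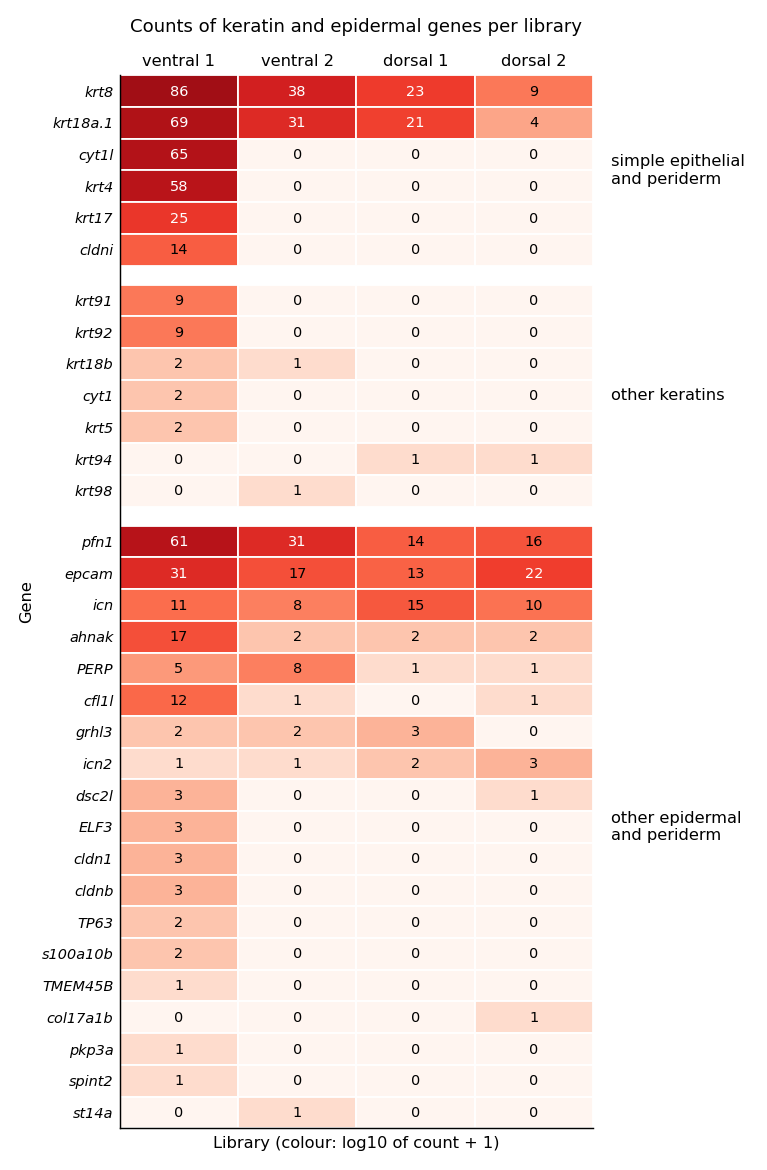
Counts per library of the 6 genes, of other keratin genes and of other epidermal and periderm genes with at least 1 count, coloured by log10 of count + 1. Most keratin counts beside krt8 and krt18a.1 fall in ventral library 1, while pfn1, epcam and icn have counts in all 4 libraries.

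Claudin genes other than cldni showed several patterns. Of 17 matched genes, 9 had a count. The gene cldng gave 11 and 6 counts in ventral libraries, against 26 and 6 in dorsal libraries. It was the single member of the list tested, with a log2 fold of -1.003 ± 0.48 (SE) at an adjusted p = 0.463 in edgeR. CLDN5, a claudin gene of endothelial tight junctions that the symbols of the list did not match, was tested as well and singled out after its values were seen. It gave 32 and 12 counts in ventral libraries, against 12 and 3 in dorsal libraries, with a log2 fold of 1.39 ± 0.50 (SE) at an adjusted p = 0.302 in edgeR. CLDN12 was counted in every library, with 1 and 3 counts in the ventral pair of libraries, against 2 and 1 in the dorsal pair. Counts in ventral library 1 alone were seen for 4 claudin genes besides cldni, none with more than 3. Over all genes, 1370 of the 12123 with a count were seen in that library alone. The gene cldn7b gave 3 counts in ventral library 2 alone.

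Genes of other intermediate filaments and of proteins that link filaments to junctions had a lower joint sum in dorsal libraries. Their sum was 581 and 327 CPM in the ventral libraries, against 190 and 19.5 CPM in the dorsal libraries, and 5 of 12 rows had a count. The plectin genes, whose products anchor keratin filaments, gave 19 and 4 counts (plecb) and 13 and 4 counts (pleca) in ventral libraries. In dorsal libraries plecb gave 0 and 0 counts and pleca gave 3 and 0. The linker gene macf1a gave 25 and 12 counts in ventral libraries, against 11 and 1 in dorsal libraries, and a log2 fold of 1.49 ± 0.57 (SE) at an adjusted p = 0.315 in edgeR. It was the single member tested. The vimentin gene VIM, which encodes another intermediate filament protein, gave 1 count in ventral library 2 over its 2 rows and 0 counts elsewhere. The lamin gene LMNB1 gave 6 and 5 counts in ventral libraries, against 8 and 0 in dorsal libraries. These filament genes did not separate the sides, so the lower dorsal sum rests on the linker genes plecb, pleca and macf1a.

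The tested genes closest to krt8 in pattern came from other functional groups. Closeness was the Euclidean distance of log2 CPM centred over the 4 libraries, so the points share depth and the same 4 libraries. The closest was cdc42l, a gene of the Cdc42 type of small GTPase, at a distance of 0.302, with 39 and 17 counts in the ventral pair of libraries, against 11 and 5 in the dorsal pair. It was followed by the AP-1 gene FOSL2 at 0.377, the actin-monomer-binding gene tmsb4x at 0.389, the endothelial adaptor gene she at 0.395 and the transcriptional cofactor gene IRF2BP2 at 0.422. The partner of krt8, krt18a.1, stood at place 26 of 1398 at a distance of 0.66. No other gene of the 6 or of the list of other keratins was tested, so no other of these keratins could stand near krt8. In dorsal library 2 the partners rest on 9 and 4 counts, with overlapping counting intervals. The gene closest to krt18a.1, a comparison added after the values were seen, was the Notch ligand gene dll4 at 0.263, with 56 and 24 counts in the ventral pair of libraries, against 18 and 4 in the dorsal pair.

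Markers of other cell types were summed over lists. Mesenchymal genes stood at 1144 and 780 CPM in ventral libraries, against 362 and 214 CPM in dorsal libraries, with 8 of 11 rows counted and PDGFRA and acta2 at 0. Much of these sums came from 1 row of TAGLN, with 59 and 52 of the 124 and 62 list counts in ventral libraries. In dorsal libraries that row gave 19 and 7 of 42 and 11 list counts, and the order of the sides rests on it. The other TAGLN row had 0 counts. The actin-binding transgelin gene TAGLN was the single tested member and was higher in both ventral libraries, with a log2 fold of 1.96 ± 0.29 (SE) at an adjusted p = 0.0183 in edgeR. That call ended with DESeq2 (adjusted p = 0.188), voom (0.0674) and ERCC scaling (0.999), and without dorsal library 1 (0.101) or dorsal library 2 (0.0557). The mesenchymal gene twist1b gave 26 and 0 counts in ventral libraries, against 0 and 1 in dorsal libraries. The collagen genes of the list were spread more widely. Of these, col1a1a gave 15 and 0 counts in ventral libraries against 9 and 1 in dorsal libraries. For COL1A2 the counts were 10 and 4 against 7 and 1, and for COL5A1 12 and 6 against 4 and 1. Neural genes stood at 212 and 189 CPM in ventral libraries, against 164 and 77.9 CPM in dorsal libraries, and skeletal muscle genes gave 2 and 0 counts in the ventral pair of libraries, against 2 and 2 in the dorsal pair. Erythroid genes stood at 64480 and 83607 CPM in ventral libraries, against 63490 and 122080 CPM in dorsal libraries. These sums, which include globins near the ceiling of the counts, were far above the endothelial sums of 1660 and 1559 against 423 and 642 CPM. Of 12 tested erythroid members 0 passed edgeR's test, with 0 higher and 2 lower at an unadjusted p under 0.05. The median log2 fold was -0.25 over the 6 tested members below the ceiling. The other 6 are globin genes at the ceiling, with nearly equal counts in every library, such as 1018, 1006, 1018 and 993 for hbae1.1. Their folds, with a median of -0.40, mainly follow the library totals, and nothing is read from them. Of the 4 endothelial genes tested 0 passed, with 4 higher at an unadjusted p under 0.05, at a median log2 fold of 1.73. The scavenger receptor gene stab2 passed without ventral library 1, ventral library 2 or dorsal library 2, at adjusted p of 0.00227, 0.0414 and 0.0321. DESeq2 and voom likewise called 0 members of either list. The part of any of these cell types in the keratin levels was not tested.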

How the data were processed

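RNA of 4 libraries was measured by CEL-Seq with synthetic ERCC spike-in RNAs and a unique molecular identifier in each primer, per the labels' protocols. The authors deposited raw counts, whole numbers for each Ensembl gene. CASAVA 1.8, Bowtie2 2.1.0, HTSeq 0.5.4p3 and the build Zv9 are named without role in the submitters' processing notes. Whether reads or identifiers were counted is not stated. The highest gene count was 1024, the number of distinct identifiers of 5 bases, so counts were read as identifiers with a ceiling. Counts of the 6 genes lie far below it. Rows naming no gene held 96.4% to 97.4% of the column totals and were left out. How strand was handled is not stated.

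A symbol was found for 20769 genes. Of 189 list symbols 59 matched no row by name and were left out of the lists. A gene behind such a symbol may be counted under another name, as CLDN5 was. The tested rows SLC4A1 and AQP1 may likewise stand for the unmatched erythroid symbol slc4a1a and endothelial symbol aqp1a.1. Their log2 folds were -0.40 ± 0.15 and -0.31 ± 0.33 (SE), and they are in no list count. No sequences were at hand and none are shown.

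Ventral over dorsal folds come from edgeR 4.0.16 in R 4.3.3 (quasi-likelihood F test, TMM, edgeR's own expression filter, Benjamini-Hochberg at 0.05, group as the only term). The SE is the log2 fold divided by the square root of F. The filter kept 1399 of 12123 genes with a count. DESeq2 1.42.0, voom of limma 3.58.1, other scalings, no filter and leaving out each library (same genes tested) were alternatives, and a block of libraries with adjacent numbers was added after the data were seen. The fits were tested on simulated data. The genes, lists and tests were chosen with earlier results of these data known. Named genes were the 6 genes, keratin and epidermal list members with 10 or more counts, genes past the test in any list, the 5 nearest to krt8 and the 10 highest in ventral library 1 alone. Any other gene named was singled out after its values were seen. Distances used a prior count of 2.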

Additional observations from a re-analysis of the deposited data

How the results depend on the processing

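The log2 folds of krt8 and krt18a.1 stayed above 0 under every alternative run. For krt8 the fold lay between 1.33 (without ventral library 1) and 2.102 (without ventral library 2), and for krt18a.1 between 1.46 (without ventral library 1) and 2.59 (without dorsal library 1); the cause was not tested. Scaling to ERCC counts raised their SE to 1.24 and 1.22, at 2.03 and 2.06. The summed CPM ratio of the pair lay between 2.74 and 4.54 when a library was left out, and the skin genes in ventral library 1 at 1490 to 1633 CPM.

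Over all genes, the 6 higher calls became 0 with ERCC scaling, DESeq2 or voom, 43 without a filter, where more genes are tested, and 0 to 46 when a library was left out with the tested genes kept. The 0 lower calls became 4 without a filter and 1 to 5 when a library was left out. At an unadjusted p under 0.05, DESeq2 and voom had 51 and 102 higher and 7 and 76 lower. In the mesenchymal list the called number was 0 with ERCC scaling, DESeq2 and voom, 2 without a filter (twist1b beside TAGLN) and 0 to 1 when a library was left out. Without a filter, plecb and stab2 were called, 1 gene each in the filament linker and endothelial lists. When a library was left out, higher calls ranged from 0 to 1 for the epidermal and endothelial lists. Of 229 recomputed values 27 moved beyond the spread between replicates or, for counts, by over 1.5 times; 164 of the others are list counts that stayed at 0, some of lists with no tested gene, and show no stability. The labels pair no libraries, but the numbers in their titles put each ventral library next to a dorsal one. The deviations of libraries with adjacent numbers correlated at -0.02 across 1399 genes. Counting error in genes with few counts pulls such a correlation toward 0, so it cannot settle whether the libraries were paired. With these numbers as a replicate block, a fit chosen after seeing the data, 10 genes were called higher and 0 lower. The log2 folds were then 1.81 ± 0.31 for krt8 and 1.97 ± 0.33 for krt18a.1 (SE), against SE of 0.33 and 0.39 without the block. Dorsal library 2 has the fewest gene counts and holds 9 and 4 counts of krt8 and krt18a.1.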
